A study of Mus musculus with 18 samples.

Results

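The genes described here encode the factors that start and extend protein synthesis on cytosolic ribosomes: the initiation factors (symbols Eif1 to Eif6) and the elongation factors (Eef1 and Eef2), with the kinases, binding proteins and methyltransferases that carry the same symbols. Members were chosen by symbol alone, leaving out Eif2ak3, Eif2s3x and Eif2s3y, and the probe set whose mean over the 18 arrays was highest stood for each gene. This gave 49 genes of the 17097 measured, of which 47 of the 12822 genes above the filter on low values were tested. The filter lay at a mean log2 level of 5.52. Eif2ak2 (mean 4.85), the kinase that senses double-stranded RNA, and Eif2b5 (4.93), the catalytic subunit of the exchange factor eIF2B, fell below it, and Eif4e (6.10) and Eef1aknmt (6.12) were the nearest members above it.

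Cortex and striatum were dissected together from mice aged 6 weeks, with 2 CPEB4 KO animals, 2 CPEB4 GT/+ animals and 2 WT animals. CPEB4 belongs to the proteins that bind cytoplasmic polyadenylation elements and regulate tail length and translation of the mRNAs that carry them. RNA from each animal was measured as INPUT (total RNA) and as poly(U)-bound RNA released at a lower formamide concentration (WASH, enriched for short tails) or a higher one (ELUTED, enriched for long tails). The sources used here do not say how the KO and GT alleles were made, on which strain, or of which sex the animals were, and GT/+ is taken only as the labels write it, with a GT allele beside a + allele.

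The check of the modified gene came first. Cpeb4 in INPUT stood at 6.62 and 6.91 in CPEB4 KO, 7.31 and 7.0 in CPEB4 GT/+ and 8.15 and 7.62 in WT (log2 level), so the groups did not overlap. Whether that probe set lies in the changed stretch of the gene is not given in the sources used here. Defining genes of the labelled tissue were measured: Camk2a of cortical excitatory neurons averaged 12.35 in INPUT, and Ppp1r1b of striatal projection neurons 9.84. Array spread differed between fractions, with standard deviations over probe sets of 1.78 to 1.90 on ELUTED arrays, 1.96 to 2.01 on WASH arrays and 1.89 to 1.95 on INPUT arrays. RMA sets the arrays to a common scale, so the differences below are not absolute but set against the bulk of genes measured together. In whole tissue, fewer cells of a type and less RNA per cell cannot be told apart.

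Translation begins when eIF2 brings the initiator tRNA to the small ribosomal subunit, which eIF1, eIF1A, eIF5 and the large scaffold eIF3 hold ready for scanning. The cap-binding complex eIF4F (eIF4E, the helicase eIF4A and the scaffold eIF4G) loads this subunit on the mRNA, and eIF2B recharges eIF2 with GTP for the next round. In elongation, eEF1A delivers aminoacyl-tRNAs and eEF2 moves the ribosome to the next codon. Many of the mRNAs for these proteins begin with a run of pyrimidines (a 5′ terminal oligopyrimidine tract, TOP), through which their translation follows mTOR signalling. The poly(A) tail at the other end binds PABP, which contacts eIF4G. In neurons, eIF4E-binding proteins, eIF2 kinases and eEF2 kinase are known for their part in synaptic plasticity and memory.

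RefSeq promoter sequences (GRCm38.p6) were found for 36 of the 47 tested members. The windows below hold the 15 bases before and the 15 bases from an annotated transcription start, 5′ to 3′, and are shown because a TOP is defined by the letters at the start and these members differ in them. Capitals mark the longest run of pyrimidines. Eif3f lies at chr7:108934400-108934429 (+ strand), Eif3l at chr15:79075208-79075237 (+), Eef1a1 at chr9:78481710-78481739 (-), Eef1a2 at chr2:181157001-181157030 (-), Eef1b2 at chr1:63176816-63176845 (+) and Eef2 at chr10:81176616-81176645 (+).
Eif3f: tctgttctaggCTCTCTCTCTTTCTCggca
Eif3l: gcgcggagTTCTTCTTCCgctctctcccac
Eef1a1: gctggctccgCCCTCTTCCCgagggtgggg
Eef1a2: TCTCTCCTggtctgcgttctcgctcactgg
Eef1b2: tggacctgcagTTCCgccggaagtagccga
Eef2: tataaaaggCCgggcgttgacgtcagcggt

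The runs spanned 15 bases in Eif3f, 10 in Eif3l and Eef1a1, 8 in Eef1a2, 4 in Eef1b2 and 2 in Eef2. In Eif3f, Eif3l and Eef1a1 they spanned the annotated start, and in Eef1a2 the run ended before it. A run of at least 7 pyrimidines lay anywhere in a window of 10 of 36 members (27.8%), against 22.2% of the 10307 tested genes that had a promoter sequence. The annotated start need not be the start used in cortex, so a short run says only that these letters are not in this window. Eif3f, with the longest of the runs printed here, was 1 of the 6 members higher in the long-tail fraction, while Eif3l and Eef1a1 were lower in it, as described next.

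Most translation factor mRNAs were lower in the long-tail than in the short-tail fraction. The log2 ELUTED level minus the log2 WASH level of the same animal (called the tail ratio below) averaged over the 3 genotypes was called in 42 of 47 members by limma at a Benjamini-Hochberg adjusted p under 0.05, with 36 lower and 6 higher. Of all 12822 genes, 73.4% were called, 48.5% lower and 24.9% higher, so most genes on these arrays differed between the fractions. The members' median tail ratio was -0.52, against -0.18 over all genes tested. In each animal the members' median lay below that of all genes, with a mean difference of -0.34 ± 0.12 (SD, n = 6). The difference between the fitted medians was -0.34, and -0.21 after quantile normalization. Centring arrays on their medians or aligning them on the hybridisation controls shifts all genes of an array alike, so neither can change this difference. The alignment moved the median of all genes to -0.67. It left 0 members higher and 40 lower, with 202 of all genes higher and 9230 lower. The 3′ minus 5′ difference of the Actb control probe sets, a sign of RNA or amplification quality, also differed between fractions. It was -0.47 to -0.31 on ELUTED arrays, -0.21 to -0.059 on WASH arrays and -0.48 to -0.41 on INPUT arrays. That of the Gapdh control probe sets overlapped between ELUTED arrays (-0.053 to 0.062) and WASH arrays (-0.13 to 0.020). The part of either control difference in these counts was not tested.

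**Figure D1:**
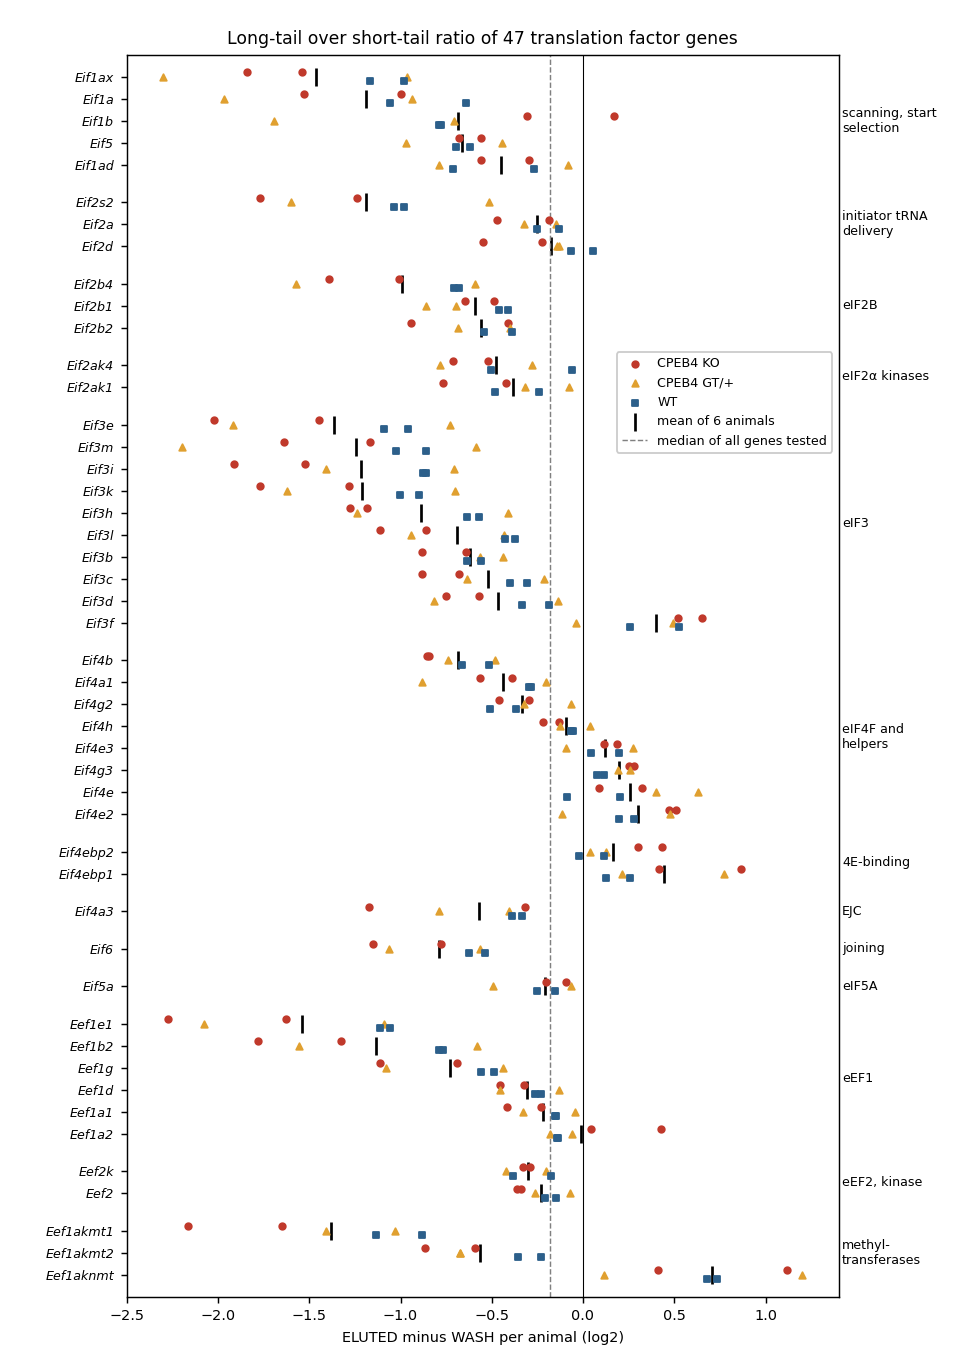
Tail ratio (log2 ELUTED minus log2 WASH, horizontal axis) of the 47 tested members in each of the 6 animals, grouped by role down the page; coloured points are animals, black bars the mean of 6 animals, and the dashed line the median of all genes tested (-0.18). Most bars lie left of the dashed line, while Eif3f, Eif4ebp1, Eif4e2 and Eef1aknmt lie right of 0.

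The counts by role in this and the following paragraphs stand beside the 76.6% of members and 48.5% of all genes that were lower. All 5 members listed under scanning and start codon selection, the eIF1A-like Eif1ad among them, were lower in ELUTED, with a median of -0.68. The largest difference was that of Eif1ax, the X-linked gene of eIF1A, which keeps the subunit open for scanning. Its tail ratio was -1.54 and -1.84 in CPEB4 KO, -0.96 and -2.30 in CPEB4 GT/+ and -1.17 and -0.98 in WT, or 2.76-fold lower on average (limma adjusted p = 0.00012). Every animal was below 0, and the CPEB4 GT/+ animals held both the highest and the lowest value. Eif1a, its autosomal paralogue, averaged -1.19, Eif1b, a paralogue of eIF1, -0.68, and Eif5, the GTPase-activating protein of eIF2, -0.66. Eif1ad, an eIF1A-like protein, averaged -0.45.

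Of 3 members that bring initiator tRNA, 2 were lower. Eif2s2, the beta subunit of eIF2, had tail ratios of -1.24 and -1.77 in CPEB4 KO, -0.51 and -1.60 in CPEB4 GT/+ and -0.98 and -1.03 in WT (mean -1.19, SE 0.14). Its CPEB4 KO values lay below both WT values and the CPEB4 GT/+ pair lay on either side of them. Eif2a, an eIF2-independent carrier of initiator tRNA, averaged -0.25. Eif2d, another alternative carrier, averaged -0.18 and did not pass the test (adjusted p = 0.0645).

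All 3 tested subunits of eIF2B were lower, with a median of -0.59. The lowest was Eif2b4, the delta subunit, at -1.01 and -1.39 in CPEB4 KO, -0.59 and -1.58 in CPEB4 GT/+ and -0.70 and -0.68 in WT. Eif2b1 (alpha) averaged -0.59 and Eif2b2 (beta) -0.56. Both tested kinases of eIF2 alpha were lower too. Eif2ak4 (GCN2, which responds to amino acid shortage) had -0.52 and -0.71 in CPEB4 KO, -0.28 and -0.78 in CPEB4 GT/+ and -0.50 and -0.06 in WT, and Eif2ak1, the haem-regulated kinase, averaged -0.39. All 6 animals were below 0 for each of these 5 genes.

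Of the 10 measured eIF3 subunits, 9 were lower and 1, Eif3f, was higher, with a median of -0.79. Eif3e had tail ratios of -1.45 and -2.02 in CPEB4 KO, -0.73 and -1.92 in CPEB4 GT/+ and -1.09 and -0.96 in WT. Eif3m, another core subunit of the complex, had -1.17 and -1.64 in CPEB4 KO, -0.59 and -2.20 in CPEB4 GT/+ and -0.86 and -1.03 in WT. In both genes the values of CPEB4 GT/+ replicate 1 were the closest to 0 and all 6 animals were below it. Eif3i, a subunit of the mobile module around eIF3b, had -1.52 and -1.91 in CPEB4 KO, -0.71 and -1.41 in CPEB4 GT/+ and -0.88 and -0.86 in WT. Eif3k averaged -1.21, Eif3h -0.89, Eif3l -0.69 and Eif3b -0.62, and Eif3c (-0.52) and Eif3d (-0.47) were the least low of the 9.

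Eif3f, a core subunit, differed from the other subunits in sign. Its ELUTED level was 11.99 and 11.56 in CPEB4 KO, 11.53 and 11.24 in CPEB4 GT/+ and 11.47 and 11.43 in WT, and its WASH level was 11.34 and 11.04 in CPEB4 KO, 11.04 and 11.27 in CPEB4 GT/+ and 10.95 and 11.17 in WT (log2). The tail ratio was above 0 in 5 of 6 animals, the exception being CPEB4 GT/+ replicate 2 at -0.04 (mean 0.40, SE 0.09, limma adjusted p = 0.00437). This call rests on the chosen probe set: a second probe set above the filter averaged -0.12 ± 0.21 (SD, n = 6). Alignment of the arrays on the hybridisation controls turned the chosen probe set to -0.09.

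The cap-binding group was mixed, with 3 of 8 members higher, 3 lower and a median of 0.01. The lowest was Eif4b, a cofactor of the helicase, at -0.84 and -0.85 in CPEB4 KO, -0.48 and -0.74 in CPEB4 GT/+ and -0.51 and -0.66 in WT. The helicase itself, Eif4a1, had -0.39 and -0.57 in CPEB4 KO, -0.20 and -0.88 in CPEB4 GT/+ and -0.28 and -0.30 in WT (mean -0.44). Eif4g2 (DAP5, an eIF4G-like scaffold that lacks the eIF4E site) averaged -0.34. Each of these 3 was below 0 in all 6 animals.

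Of the cap-binding proteins, Eif4e2 and Eif4e were higher in ELUTED at their chosen probe sets. Eif4e2 (4EHP, which binds the cap without eIF4G) had 0.51 and 0.47 in CPEB4 KO, 0.48 and -0.12 in CPEB4 GT/+ and 0.28 and 0.20 in WT (mean 0.30, SE 0.09). Eif4e, the main cap-binding protein, had 0.09 and 0.33 in CPEB4 KO, 0.40 and 0.63 in CPEB4 GT/+ and 0.20 and -0.09 in WT, at a probe set near the filter on low values. Eif4g3, an eIF4G scaffold, averaged 0.20 and was above 0 in all 6 animals. Eif4e3, another cap-binding paralogue (0.12), and Eif4h, a helicase cofactor (-0.09), did not pass the test. The other probe set of Eif4e3 averaged -0.41. Of the 4 other probe sets of Eif4e2, 1 averaged -0.67 and the rest were above 0. Eif4e, Eif4e2, Eif4g3 and Eif4e3 were below 0, at -0.23, -0.19, -0.29 and -0.37, when arrays were aligned on the hybridisation controls.

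The proteins that sequester eIF4E when they are not phosphorylated were not lower in ELUTED. Eif4ebp1 had 0.42 and 0.87 in CPEB4 KO, 0.21 and 0.77 in CPEB4 GT/+ and 0.13 and 0.26 in WT (mean 0.44, SE 0.10, limma adjusted p = 0.00427). It was above 0 in all 6 animals and both CPEB4 KO values exceeded both WT values. Eif4ebp2, the main form in brain, averaged 0.16 and did not pass the test (adjusted p = 0.0639). The alignment on hybridisation controls put Eif4ebp1 at -0.05 and Eif4ebp2 at -0.33.

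Single members of other roles were lower. Eif6, which keeps the large subunit from joining too early, had -0.78 and -1.15 in CPEB4 KO, -0.57 and -1.06 in CPEB4 GT/+ and -0.54 and -0.63 in WT. Eif4a3, the helicase of the exon junction complex, had -0.32 and -1.17 in CPEB4 KO, -0.40 and -0.79 in CPEB4 GT/+ and -0.34 and -0.39 in WT. Eif5a, the hypusine-carrying factor that helps at slow peptide bonds, had -0.20 and -0.09 in CPEB4 KO, -0.49 and -0.06 in CPEB4 GT/+ and -0.15 and -0.25 in WT (mean -0.21, limma adjusted p = 0.0457). Eif5a thus lay close to the median of all genes, and its groups overlapped.

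Among the eEF1 genes, 5 of 6 were lower, with a median of -0.52. Eef1e1, whose product sits in the multi-tRNA synthetase complex, had the lowest mean tail ratio of all 47 members. Its ELUTED level was 5.94 and 5.95 in CPEB4 KO, 6.69 and 5.72 in CPEB4 GT/+ and 6.57 and 6.5 in WT, and its WASH level was 7.57 and 8.23 in CPEB4 KO, 7.78 and 7.80 in CPEB4 GT/+ and 7.68 and 7.56 in WT. ELUTED was below WASH in every animal, by 2.91-fold on average (log2 -1.54, SE 0.14, limma adjusted p = 7.65e-05). The ELUTED values of both CPEB4 KO animals and of CPEB4 GT/+ replicate 2 lay not far above the filter (5.52). They were also close to the highest mean of the nonspecific control probe sets (5.61), so the size of this fold is uncertain. The exchange factor subunits averaged -1.13 (Eef1b2), -0.73 (Eef1g) and -0.31 (Eef1d).

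The aminoacyl-tRNA carrier itself was close to the median of all genes. Eef1a1 had tail ratios of -0.23 and -0.42 in CPEB4 KO, -0.05 and -0.33 in CPEB4 GT/+ and -0.15 and -0.15 in WT (mean -0.22, limma adjusted p = 0.0283). Eef1a2, the form of adult neurons and muscle, had 0.43 and 0.04 in CPEB4 KO, -0.06 and -0.18 in CPEB4 GT/+ and -0.14 and -0.14 in WT (mean -0.01, adjusted p = 0.922). Only the CPEB4 KO animals were above 0 for Eef1a2, and the mean became 0.10 with arrays centred on their medians, and 0.24 after quantile normalization.

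Both genes of the translocation step were called lower, Eef2 close to the median of all genes and Eef2k at its chosen probe set. Eef2 had -0.34 and -0.36 in CPEB4 KO, -0.07 and -0.26 in CPEB4 GT/+ and -0.15 and -0.21 in WT (mean -0.23). Eef2k, the calcium- and calmodulin-dependent kinase that inhibits eEF2, had -0.29 and -0.33 in CPEB4 KO, -0.20 and -0.42 in CPEB4 GT/+ and -0.17 and -0.38 in WT (mean -0.30). The other 2 probe sets of Eef2k, both above the filter, averaged 0.03 and 0.54. The mean over all Eef2k probe sets was 0.09, on the other side of 0.

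The methyltransferases of eEF1A split. Eef1akmt1 had -1.65 and -2.16 in CPEB4 KO, -1.03 and -1.41 in CPEB4 GT/+ and -1.14 and -0.88 in WT (mean -1.38), and Eef1akmt2 averaged -0.57. Eef1aknmt, which methylates the N terminus and a lysine of eEF1A, had 0.41 and 1.12 in CPEB4 KO, 0.12 and 1.20 in CPEB4 GT/+ and 0.73 and 0.68 in WT (mean 0.71, limma adjusted p = 0.00278). Its WASH level was 5.97 and 5.49 in CPEB4 KO, 5.90 and 5.33 in CPEB4 GT/+ and 5.80 and 5.90 in WT. The values of CPEB4 KO replicate 2 and CPEB4 GT/+ replicate 2, whose tail ratios were the highest, lay below both the filter and the highest mean of the nonspecific control probe sets (5.61), so their ratios are only bounds. Its other probe sets averaged 0.06 and -0.45.

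Of the 10 members on the list of TOP mRNAs 8 were lower, Eif3f was higher and Eef1a2 was not called, with a median of -0.50. Of all 47 tested members 76.6% were lower, with a median of -0.52, and of all genes 48.5%, with a median of -0.18. Within the list the mean tail ratio ran from -1.36 (Eif3e) and -1.13 (Eef1b2) to -0.23 (Eef2) and -0.22 (Eef1a1), and the 10 members with a run of at least 7 pyrimidines anywhere in a 30-base window had a median of -0.46, against -0.49 for the others with a sequence. These runs lay wholly before the start in Eef1a2, Eef1akmt2, Eif4b and Eif4e and wholly after its first base in Eif1ad, Eif2ak4 and Eif2b2.

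A motif of the ETS factors, CCGGAAG on either strand, lay in the 300-base promoter (250 bases before and 50 from the start) of 14 of 36 members (38.9%), against 17.4% of all 10307 tested genes with a promoter sequence. Members with it had a median tail ratio of -0.54 and those without it -0.37. The windows of Eef1b2 (given above), Eif2b4 at chr5:31193125-31193154 (-) and Eif4e2 at chr1:87213896-87213925 (+) are shown with the motif in capitals, since they hold it beside the start and their genes differ in the sign of the tail ratio.
Eef1b2: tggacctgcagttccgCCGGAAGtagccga
Eif2b4: cgggacccagtgcacgCCGGAAGttgtagt
Eif4e2: ctgagcgcctcgccagccaaCCGGAAGtag

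The palindrome TGACGTCA of CREB factors was found in 1 promoter, that of Eef2 (2.78%, against 3.42% of all), and TATAAA in those of Eef2, Eif3b and Eif3f (8.33%, against 9.63%). These matches are descriptions of letters and not binding sites.

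Setting each fraction against total RNA showed in which fraction the members stood apart. ELUTED minus INPUT was called in 31 members, 27 lower and 4 higher, with a median of -0.30, while 44.1% of all genes were called, 29.5% lower and 14.6% higher, with a median of -0.04. WASH minus INPUT was called in 35 members, 31 higher and 4 lower, with a median of 0.21, while 64.6% of all genes were called, 45.1% higher and 19.5% lower, with a median of 0.11. The lowest members in ELUTED against INPUT were Eif1ax (-1.06), Eif3m (-1.05) and Eef1e1 (-1.02), and the 4 higher ones were Eif4e2 (0.51), Eif3f (0.39), Eif4ebp2 (0.28) and Eef1aknmt (0.25). In WASH against INPUT, Eef1akmt1 (0.68), Eif1a (0.67) and Eif2b4 (0.61) were the highest, while Eef1aknmt (-0.46, with 2 WASH arrays near background as given above), Eif4ebp1 (-0.23), Eif4e (-0.22) and Eif4e3 (-0.13) were lower.

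**Figure D2:**
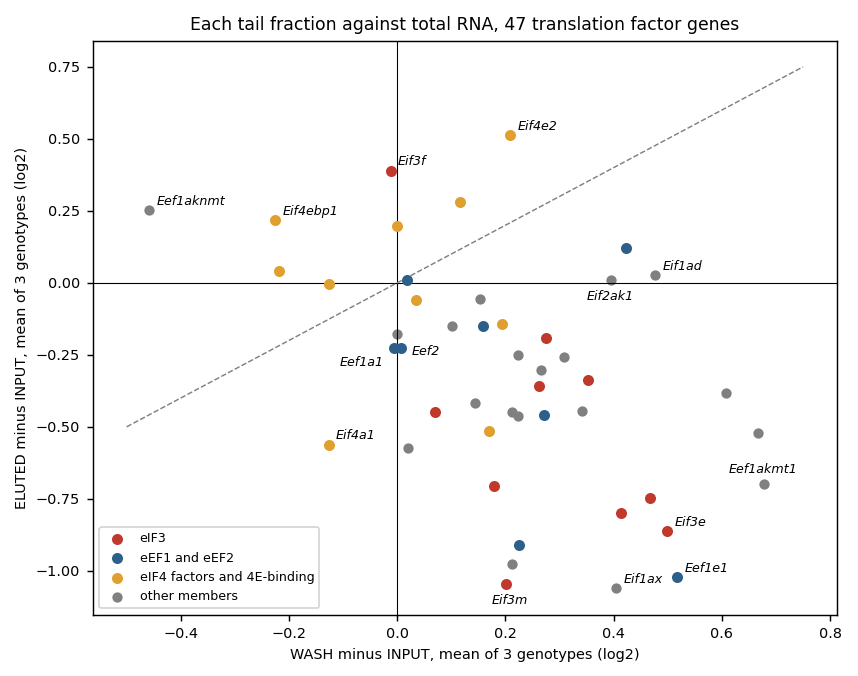
ELUTED minus INPUT (vertical axis) plotted against WASH minus INPUT (horizontal axis) for the 47 tested members, each as the limma estimate over 3 genotypes on the log2 scale; colours mark role groups, and the dashed line marks equal values, a tail ratio of 0. Eif1ax, Eif3m and Eef1e1 lie lowest, and Eif4e2 and Eif3f highest, on the vertical axis.

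Several members were called on 1 side only. That is not a lack of movement on the other side, since values are set against the bulk of genes. The median of all genes was 0.11 for WASH minus INPUT and -0.04 for ELUTED minus INPUT. Eef1a1 (-0.23) and Eef2 (-0.22) were lower in ELUTED than in INPUT, while their WASH minus INPUT estimates were near 0 and not called (adjusted p = 0.923 for Eef1a1 and 0.913 for Eef2). Eef2k (0.42), Eif2ak1 (0.40) and Eif1ad (0.48) were higher in WASH than in INPUT, while ELUTED minus INPUT was not called for them (adjusted p = 0.20 for Eef2k, 0.922 for Eif2ak1 and 0.86 for Eif1ad). Eif3f was higher in ELUTED, with a WASH estimate of -0.01 (adjusted p = 0.883). Both comparisons use the same INPUT arrays. With arrays aligned on the hybridisation controls, ELUTED minus INPUT gave 0 higher and 30 lower members (all genes 125 higher and 4736 lower) and WASH minus INPUT 44 higher and 0 lower (all genes 9818 higher and 454 lower). WASH minus INPUT gave 20 higher and 5 lower members with arrays centred (all genes 4487 higher and 3423 lower), and 19 higher and 6 lower after quantile normalization (all genes 4595 higher and 2584 lower).

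The tail ratio was also tested in each genotype. In CPEB4 KO animals 31 members were lower and 5 higher (median -0.62), while 54.8% of all genes were called, 38.7% lower and 16.1% higher. In CPEB4 GT/+ animals 27 were lower and 2 higher (median -0.53), while 49.9% of all genes were called, 36.2% lower and 13.7% higher. In WT animals 18 were lower and 0 higher (median -0.36), while 26.9% of all genes were called, 22.2% lower and 4.73% higher. These counts depended on single animals. Without CPEB4 KO replicate 2 the CPEB4 KO count of called members was 3 instead of 36, while that of all genes was 872 instead of 7021. Without CPEB4 GT/+ replicate 2 the CPEB4 GT/+ count was 14 instead of 29, while that of all genes was 2239 instead of 6393. Without either WT animal the WT count was 0 for the members and for all genes. A fit on the WT animals alone called 34 members and 7489 of all genes. The WT count was 9 without either CPEB4 KO animal (1816 of all genes) and 28 without either CPEB4 GT/+ animal (6455 of all genes), since all animals share 1 estimate of the spread. Counts over all genes thus moved with those of the members.

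The test of the difference between genotypes called no member and no gene. For CPEB4 KO minus WT, 0 of 12822 genes passed (0.0%), and 7 of 47 members had an unadjusted p under 0.05, or 14.9%, against 6.17% of all genes. That count moved with the animals in the fit. It was 19 members and 2304 of all genes with the CPEB4 GT/+ animals, or either of them, left out. It was 1 member and 95 genes without CPEB4 KO replicate 2, 2 members and 305 genes without WT replicate 1, and 2 members and 144 genes without WT replicate 2. Alignment on the hybridisation controls left 1 member and 104 genes. The smallest p was that of Eef1akmt1, whose tail ratio was -1.91 ± 0.36 in CPEB4 KO and -1.01 ± 0.18 in WT (SD, n = 2 each), a difference of -0.90 (SE 0.24) with a limma adjusted p of 0.756. Eif3i had -1.72 ± 0.27 in CPEB4 KO and -0.87 ± 0.01 in WT (difference -0.85, SE 0.26). Eif3l, another eIF3 subunit, had -0.86 and -1.11 in CPEB4 KO and -0.43 and -0.37 in WT (difference -0.59, SE 0.22). In all 3 genes both CPEB4 KO values lay below both WT values.

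The direction of these differences followed the sign of the ratio in most members. The CPEB4 KO tail ratio was farther from 0 than the WT one in 42 of 47 members (89.4%), and in 80.0% of all genes. The animals of the 2 genotypes did not overlap in 27 members lower in CPEB4 KO and 6 higher, while among all genes 31.2% were lower without overlap and 20.6% higher. The spread of the tail ratio over all genes moved with this: its SD was 0.596 and 0.758 in CPEB4 KO, 0.409 and 0.788 in CPEB4 GT/+ and 0.485 and 0.412 in WT. Over the members it was 0.613 and 0.815 in CPEB4 KO, 0.386 and 0.787 in CPEB4 GT/+ and 0.441 and 0.401 in WT. What part of the members' differences goes with this array-wide spread was not tested.

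**Figure D3:**
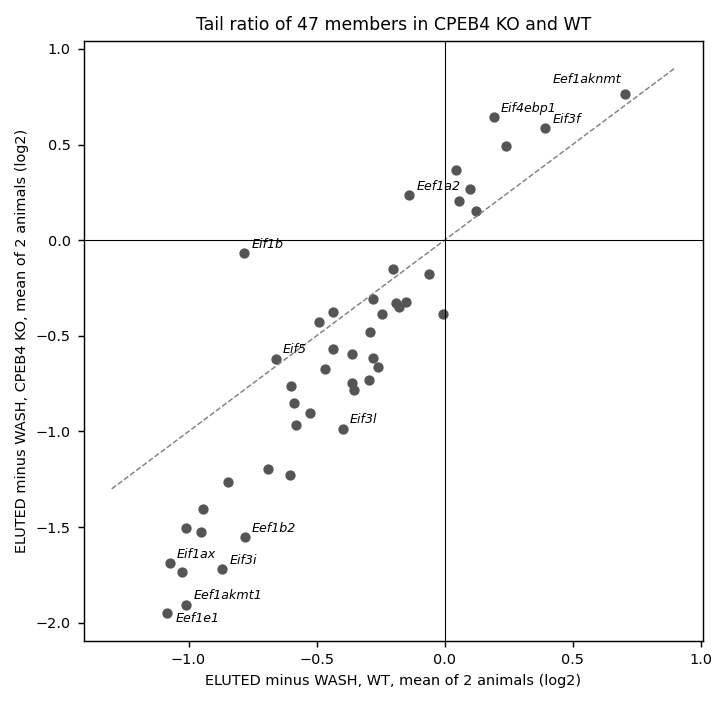
Mean tail ratio (log2 ELUTED minus log2 WASH) of each of the 47 tested members in CPEB4 KO (vertical axis) against WT (horizontal axis), 2 animals each; the dashed line marks equal values. In 42 of 47 members the CPEB4 KO value is farther from 0 than the WT value, and Eif1b lies far above the dashed line (-0.07 in CPEB4 KO, -0.78 in WT).

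Eif1b went the other way from most lower members. Its tail ratio was 0.17 and -0.30 in CPEB4 KO, -0.71 and -1.70 in CPEB4 GT/+ and -0.78 and -0.79 in WT, so both CPEB4 KO values were above all others. The ELUTED level was 10.02 and 9.68 in CPEB4 KO, 9.21 and 8.28 in CPEB4 GT/+ and 9.20 and 9.13 in WT, while the WASH level was 9.85 and 9.98 in CPEB4 KO, 9.92 and 9.98 in CPEB4 GT/+ and 9.97 and 9.92 in WT. The CPEB4 KO animals thus stood above the other 4 in ELUTED, while the genotypes overlapped in WASH. For CPEB4 KO minus CPEB4 GT/+ it had the smallest p of the members (difference 1.13, SE 0.32), and no gene passed limma's adjusted threshold. Eef1akmt1 (-0.69) and Eif3i (-0.66) followed in that comparison, in which 3 members had an unadjusted p under 0.05, or 6.38%, against 1.85% of all genes. This count was 17 members and 2302 genes without CPEB4 GT/+ replicate 2, 7 members and 1609 genes without CPEB4 GT/+ replicate 1, and 1 member and 54 genes without CPEB4 KO replicate 2. Alignment on the hybridisation controls left 0 members and 25 genes.

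Between CPEB4 GT/+ and WT, 1 member had an unadjusted p under 0.05, against 0.897% of all genes, and 0 genes were called. That count was 20 members and 3655 of all genes without CPEB4 GT/+ replicate 1, and 0 members and 200 genes without CPEB4 GT/+ replicate 2. Eif4e had the smallest p, with a mean of 0.52 ± 0.16 in CPEB4 GT/+ and 0.06 ± 0.20 in WT (SD, n = 2 each, difference 0.46, SE 0.20). Eef1akmt2 followed, at -0.68 and -0.67 in CPEB4 GT/+ and -0.36 and -0.23 in WT. Eif2b1 came next, at -0.70 and -0.86 in CPEB4 GT/+ and -0.46 and -0.41 in WT. The animals did not overlap in 3 members higher and 5 lower in CPEB4 GT/+, while 11.2% of all genes were higher and 10.6% lower without overlap.

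In total RNA no member was called between genotypes. In INPUT, 0 of 12822 genes passed limma's adjusted threshold in each of the 3 comparisons (0.0%). Cpeb4 itself, whose INPUT levels did not overlap between the groups, was thus not called either. A count of 0 therefore does not show that levels were equal. Without CPEB4 KO replicate 2, 269 genes passed for CPEB4 KO minus WT and 272 for CPEB4 KO minus CPEB4 GT/+, and alignment on the hybridisation controls gave 162 genes for CPEB4 KO minus WT and 228 for CPEB4 KO minus CPEB4 GT/+, with 0 members called in each case. The members' median difference was 0.08 for CPEB4 KO minus WT, 0.04 for CPEB4 KO minus CPEB4 GT/+ and 0.01 for CPEB4 GT/+ minus WT (log2), against 0.03, 0.02 and 0.00 over all genes. The 2 groups' animals did not overlap in 18 members higher and 5 lower in CPEB4 KO than in WT, while 24.7% of all genes were higher and 18.4% lower without overlap. An unadjusted p under 0.05 was found for 4 of 47 members in CPEB4 KO minus WT (8.51%, against 10.9% of all genes), 3 in CPEB4 KO minus CPEB4 GT/+ (6.38%, against 8.13%) and 0 in CPEB4 GT/+ minus WT (against 3.42%).

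The cap-binding genes Eif4e3 and Eif4e had the smallest p for CPEB4 KO minus WT, with opposite signs. Eif4e3 in INPUT was 9.18 and 9.15 in CPEB4 KO, 8.72 and 8.85 in CPEB4 GT/+ and 8.79 and 8.75 in WT (CPEB4 KO minus WT 0.39, SE 0.09, limma adjusted p = 0.359). Eif4e was 6.08 and 5.89 in CPEB4 KO, 6.15 and 6.24 in CPEB4 GT/+ and 6.23 and 6.39 in WT (difference -0.33, SE 0.11, adjusted p = 0.404). In both, the CPEB4 KO animals stood apart from the other 4. Eif3f was 11.37 and 11.32 in CPEB4 KO, 11.13 and 10.97 in CPEB4 GT/+ and 10.96 and 11.11 in WT (difference 0.31, SE 0.11). Eif4ebp2 was 8.97 and 9.03 in CPEB4 KO, 8.61 and 8.83 in CPEB4 GT/+ and 8.71 and 8.81 in WT.

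**Figure D4:**
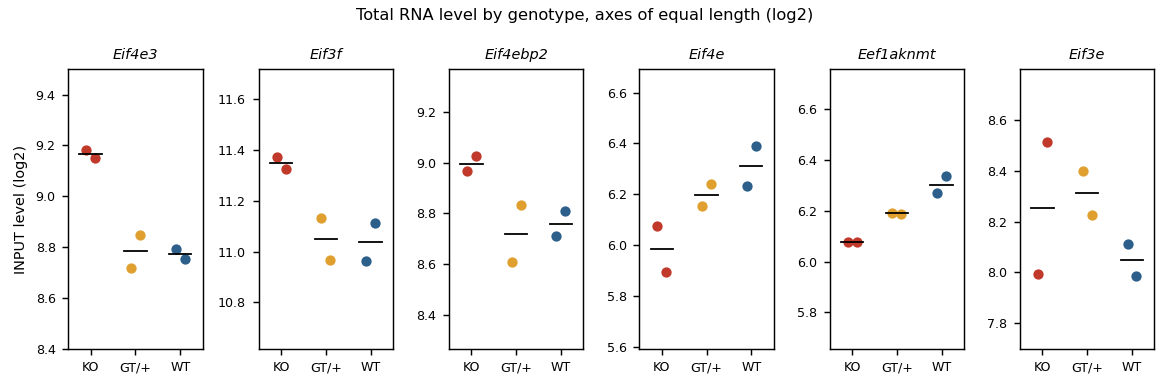
INPUT level (log2, vertical axes of equal length) of 6 members in the 2 CPEB4 KO, 2 CPEB4 GT/+ and 2 WT animals; points are animals and bars are group means. Eif4e3, Eif3f and Eif4ebp2 are highest in CPEB4 KO, and Eif4e and Eef1aknmt lowest, with no overlap between CPEB4 KO and WT in these 5 genes.

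For CPEB4 GT/+ minus WT the smallest p belonged to Eif3e, at 8.40 and 8.22 in CPEB4 GT/+ and 8.11 and 7.99 in WT, followed by Eef1akmt1, at 9.30 and 9.26 in CPEB4 GT/+ and 9.10 and 9.18 in WT. Eef1a2 was 10.45 and 10.24 in CPEB4 GT/+ and 10.07 and 10.27 in WT, so its groups overlapped, and none of the 3 reached an unadjusted p under 0.05. Mean INPUT levels of several marker lists did not overlap between CPEB4 KO and WT, with no test run on them. Among all single genes 24.7% were higher and 18.4% lower in CPEB4 KO without overlap. The mean over 6 of 6 astrocyte markers was 9.89 and 9.77 in CPEB4 KO and 9.64 and 9.71 in WT, and that over 6 of 6 microglia markers was 8.42 and 8.30 in CPEB4 KO and 8.04 and 8.24 in WT. The mean over 6 of 6 endothelial markers was 7.92 and 7.75 in CPEB4 KO and 7.59 and 7.60 in WT. The neuronal lists were higher in CPEB4 KO without overlap as well for 6 of 6 GABA interneuron markers, at 10.12 and 10.21 in CPEB4 KO and 10.01 and 10.03 in WT, and for 5 cortical excitatory markers, at 9.13 and 9.35 in CPEB4 KO and 9.04 and 9.08 in WT. The animals overlapped for the striatal projection neuron list, at 8.62 and 8.60 in CPEB4 KO and 8.42 and 8.67 in WT, and for the oligodendrocyte list, at 10.25 and 10.29 in CPEB4 KO and 10.26 and 10.27 in WT. They overlapped for the choroid plexus list too, at 7.33 and 7.76 in CPEB4 KO and 7.57 and 6.78 in WT. In CPEB4 GT/+ the GABA interneuron list (10.14 and 10.07) and the cortical excitatory list (9.27 and 9.20) lay above both WT animals. The astrocyte list (9.53 and 9.61) and the oligodendrocyte list (10.09 and 10.04) lay below both WT animals. The other lists overlapped between CPEB4 GT/+ and WT. The part of these markers in the INPUT differences of the members was not tested.

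Paralogues that share a role were compared within animals by their tail ratios. Of 11 pairs listed, 5 had both genes tested. These pairs were compared by an exact sign permutation test over 6 animals, whose smallest possible two-sided p is 0.03125. After Benjamini-Hochberg adjustment 0 passed. A pair at that smallest p could pass only if most of the other pairs reached it too. The count of 0 therefore does not show that paralogues had equal tail ratios. Eif1ax was below Eif1a in all 6 animals (difference -0.28 ± 0.18, SD, exact p = 0.03125, adjusted 0.0781). Eif4ebp2 was below Eif4ebp1 in all 6 as well (-0.28 ± 0.23, exact p = 0.03125, adjusted 0.0781). Eef1a2 was above Eef1a1 in 5 of 6 animals (0.21 ± 0.28, exact p = 0.125). The differences were 0.04 for Eif4e2 minus Eif4e and -0.14 for Eif4e3 minus Eif4e.

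Probe sets of a gene did not always share a sign. Of 29 members with several probe sets, 15 had a probe set whose mean tail ratio was opposite to the chosen one, and in 11 of them an opposite probe set lay above the filter: Eef1g, Eef2k, Eif2ak1, Eif2d, Eif3f, Eif4e2, Eif4e3, Eif4ebp2, Eif4g2, Eif4h and Eif6. The 5 probe sets of Eif4e2 averaged from -0.67 to 0.97. For Eif4g2 the other probe sets above the filter averaged -1.34, -0.81 and 0.01, beside -0.34 for the chosen one. For Eef1g the opposite probe set averaged 0.62 and for Eif6 0.23. Probe sets can read different 3′ ends, unspliced RNA or transcripts of other genes, and which of these they read is not annotated in the tables used here. The chosen probe set carried an s suffix in 6 members (Eef2k, Eif3f, Eif3m, Eif4g2, Eif4h and Eif5a) and an x suffix in 1, Eef1d. These suffixes mark probes that can match several transcripts, and their part in the ratios was not tested. For Eef1d the chosen probe set averaged -0.31 and the other -0.65.

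The array signal of the members was high for this table, 27 of 47 lying in the highest 25% of all tested genes by mean INPUT level, a scale that includes each probe set's own brightness. Within that 25% the members' median tail ratio was -0.62, against -0.31 for all genes there. In the 25% just below, the 12 members had a median of -0.43, against -0.40 for all genes. In the next 25%, the 5 members had a median of -0.57, against -0.15 for all genes. In the lowest 25%, the 3 members had 0.26, against 0.16.

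Genes that work beside these factors, or in translation in mitochondria, were listed by role and read in the same fit. Of 25 termination, recycling and other ribosome-associated factors, 20 were lower and 2 higher in ELUTED against WASH (median -0.60). The lowest were Impact (-1.28), an inhibitor of GCN2, and Mcts1 (-1.25), which helps reinitiation. This list is not only cytosolic. It also holds the mitochondrial factors Gfm1 (-1.11), Tufm (-1.04), Tsfm (-0.69), Mtif2 (-0.45) and Gfm2 (0.11, not called). Of 18 cytosolic aminoacyl-tRNA synthetases and their scaffold proteins, 17 were lower and 1 higher (median -0.61), with Rars, the arginine enzyme, at -1.40 and the scaffold protein Aimp1 at -1.12. Of 12 genes that signal to translation, 8 were lower and 2 higher (median -0.31), among them Rheb, the activator of mTORC1, at -1.0 and Atf4, a transcription factor translated under eIF2 phosphorylation, at -0.73. Each share stands beside the 48.5% of all genes that were lower.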

How the data were processed

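Cortex with striatum of 6 mice was measured on 18 Affymetrix arrays, 3 fractions per animal. The series text names a PrimeView mouse array, while the probe set names carry a PM mark. The names were taken as deposited and paired with genes through the platform annotation. The deposited values are log2 intensities that the authors computed by RMA, as the submitters' processing notes say, and its version is not given in the sources used here. Of 45141 probe sets, 28898 with 1 gene symbol were used, and each gene took the one with the highest mean over 18 arrays. The lowest 25% of genes by that mean were left out.

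Values of the fractions were subtracted within each animal and fitted with limma 3.58.1 (lmFit, contrasts.fit, eBayes without trend; R 4.3.3) with genotype means, with a common estimate of the spread from all 6 animals. The 12 comparisons were each adjusted by Benjamini-Hochberg over all 12822 genes. INPUT was fitted on its 6 arrays. SE is limma's moderated standard error and SD is between animals. Fractions of an animal share its RNA, and their deviations from group means correlated at r = -0.125 to 0.348. Replicate numbers of different genotypes name different animals and pair nothing. The number of arrays limits the precision: an exact test of 2 animals against 2 cannot give a p below 0.333.

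Values of every animal are given for the canonical factors measured, the 6 lowest and 4 highest members by tail ratio, the 3 smallest p in each genotype comparison and the largest called difference in each role. Further values, such as those of Eif1b by fraction, were chosen after they were seen. The members and lists were chosen with earlier results of these data known. Factors outside the tables used here were not analysed. Motifs and pyrimidine runs were read in RefSeq promoter sequences. The fits were also run on simulated data in which genes varied independently of each other. That check cannot speak to a spread shared by all genes of an array, and no result rests on it.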

Additional observations from a re-analysis of the deposited data

Results flagged for a closer look

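In 1 of 47 members a single animal stood apart from the other 5 in the tail ratio. Eef1a2, the neuronal and muscle form of eEF1A, had 0.43 in CPEB4 KO replicate 1, while the other 5 animals lay between -0.18 and 0.04. The gap to the nearest animal was 0.629 of the whole range, just above Dixon's critical value for 6 animals, and chance marks about 1 in 20 such groups.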

How the results depend on the processing

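With 2 animals per genotype, single animals decided the counts within a genotype. Leaving out each animal in turn gave 35 to 43 called members for the tail ratio over the 3 genotypes, 21 to 36 for ELUTED minus INPUT and 27 to 32 for WASH minus INPUT. It gave 3 to 41 in CPEB4 KO, 14 to 33 in CPEB4 GT/+ and 0 to 28 in WT, and 0 in each of the 6 comparisons between genotypes. Where an arm kept 1 animal, that animal was assumed to vary like the others. The WT count was 11 with arrays centred on their medians, 10 after quantile normalization and 34 with the WT animals alone. The share of higher members among those called over the 3 genotypes was 14.3%, 20% with arrays centred, 21.1% after quantile normalization and 0% after alignment on the hybridisation controls. These settings put the median of all genes at -0.07, -0.06 and -0.67, against -0.18. The alignment turned Eif3f to -0.089, Eif4e to -0.23, Eif4e2 to -0.19, Eif4e3 to -0.37, Eif4ebp1 to -0.048, Eif4ebp2 to -0.33 and Eif4g3 to -0.29. Eef1a2 turned to 0.10 with arrays centred, 0.24 after quantile normalization, and ran from -0.073 to 0.055 when each animal was left out, with 0.055 without CPEB4 KO replicate 2 and 0.011 without CPEB4 GT/+ replicate 2. Eif4h turned to 0.020 with arrays centred and Eif2d to 0.014 after quantile normalization. The mean of all probe sets put Eef2k at 0.091 and Eif4e3 at -0.14. The cause of these turns was not tested. Without the replicate block of fractions within an animal, 7 members were higher and 36 lower over the 3 genotypes. With the replicate number as a replicate block across genotypes, 0 members were called in each of the 6 comparisons, as without it. The means of the 3 fractions in place of INPUT, other filters and a trended variance moved no count of called members by over 1.5 times. Arrays hold no read depth, and members below the filter have only a bound.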
